A study of Mus musculus with 36 samples.

Results

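The comparison described here sets 4 h of tetracycline against no tetracycline in NIH3T3 mouse fibroblasts that carry an Erbb2 transgene under tet-off control. It was chosen by the group named in the sample titles, and it rests on 4 arrays of the 4 h group and 4 deposited untreated arrays, of which 3 were distinct, out of 36 arrays in the series. Total RNA was measured on dual-colour cDNA arrays. Per the labels, channel 1 held RNA of Erbb2-transfected cells after 4 h of tetracycline, or of Erbb2-transfected cells without it, and channel 2 held RNA of untreated Erbb2-transfected cells on every array. Channel 1 was labelled with Cy5 in replicates 1 and 2 and with Cy3 in replicates 3 and 4. All groups share the cell line, the transgene and the tet-off system. The labels name no dose of tetracycline, no clone and no separate cultures, so p-values measure the spread between these arrays, which may be technical. The protocols also mention organs and a pooled control-animal reference, and the design text mentions 2 different untreated lines, so the material in the untreated arrays is not fully settled.

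In a tet-off system a transactivator protein drives the transgene until tetracycline binds it, after which transcription of the transgene is meant to stop. The Erbb2 product is a cell-surface tyrosine kinase related to the epidermal growth factor receptor. It has no known ligand of its own, pairs with other receptors of the family, and signals through the RAS, RAF, MEK and ERK kinases and through PI3-kinase and AKT. In fibroblasts ERK activity drives immediate early genes such as Egr1 within minutes, and transformed fibroblasts are known for altered matrix production and actin organisation. The transgene itself was not checked, because 0 of 20355 probes carry the name Erbb2 in the annotation. That annotation gave 14030 probes 1 gene symbol each, for 9930 genes, and left 6320 probes unnamed here.

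All values are log2 ratios, centred on the median of each array, and a difference of 1 is 2-fold. The direction, 4 h over untreated, was assumed: no file states which channel is the numerator, and with the opposite numerator every sign below would turn together. Ratios of the Cy3 arrays were turned (multiplied by -1) so that both dyes run the same way. At 4 h the balance of large values went slightly against this. Of 119 probes beyond 1 log2 unit on both Cy5 arrays, 36.1% had the same sign on both turned Cy3 arrays, 42.0% the opposite sign and 21.8% a mixed pattern. The 4 h arrays of equal dye correlated across probes at 0.18 and 0.29, and those of opposite dye at -0.04 to -0.10 after turning. Without turning, 39 of the 49 called named genes took the opposite sign and 0 kept their call. Without turning limma also called more probes than with it, a count given in the closing section. All 159 called probes had the same sign of the difference within the Cy5 and within the Cy3 arrays. Of these, 132 had the same sign on all 4 arrays of 4 h. These probes and genes were called on turned values, so their signs and lost calls do not test the turning.

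The untreated arrays stand apart from the 4 h arrays in several ways. Untreated replicates 1 and 2 held the same data plus a constant (difference 0.771, SD 0.0005, over 19840 values) and were counted as 1 array, which left 1 Cy5 and 2 Cy3 arrays. After turning, that Cy5 array correlated at -0.45 and -0.38 with the Cy3 arrays, so the untreated group carries a pattern that follows the dye. The interquartile range was 0.357 to 0.447 on 4 h arrays and 0.492 to 0.7 on untreated arrays, and 19853 to 19973 probes of 4 h arrays and 19441 to 20010 of untreated arrays carried a value. For this reason the 4 h level was also tested against 0, which uses channel 2 of the same arrays and not the untreated group. Arrays give ratios and no absolute levels, so the cell type could not be checked by the level of its markers. In these bulk samples fewer cells of a type and less RNA per cell cannot be told apart.

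Egr1 and matrix genes led the falls at 4 h, while actin and glycolytic genes were among the rises. Rises outnumbered falls on centred arrays, whereas without centring 18 of 295 called probes were higher and 277 lower. The uncentred fit kept untreated replicate 1, with a median of 0.745, while its duplicate, replicate 2, had a median of -0.026. An uncentred fit with replicate 2 in its place was not run, so uncentred results here and below depend on that choice. On centred arrays limma with Benjamini-Hochberg adjustment called 159 of 18617 probes (0.854%) at an adjusted p under 0.05. Of these, 113 were higher (0.607%) and 46 lower (0.247%). By genes, 111 of 9328 named genes (1.19%) had a called probe, 79 of them higher (0.847%) and 32 lower (0.343%). Of the called probes, 55 differed by at least 2-fold, 43 higher and 12 lower. Of 158 called probes with all 7 values, 157 had 4 h and untreated values that did not overlap, where 6.82% of all probes with 7 values did so. Tested against 0, 640 of 19804 probes (3.23%) were called at 4 h, 522 higher (2.64%) and 118 lower (0.596%). Of the 111 called genes, 81 were also called against 0 in the same direction, 59 higher and 22 lower. The other 30, 20 higher and 10 lower, had a median 4 h level of 0.17 in size and a median untreated level of 0.83 in size. Both tests use the same 4 h arrays, so a call against 0 is not a separate check of a call against untreated arrays. For 4 h minus untreated, leaving out untreated replicate 1, the Cy5 array of that group, gave 2094 called probes, of which 156 were among the 159. In a fit of the 2 groups alone limma called 0 probes, with 1009 at an unadjusted p under 0.05, against 1960 in the fit that takes the spread from 23 arrays.

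**Figure D1:**
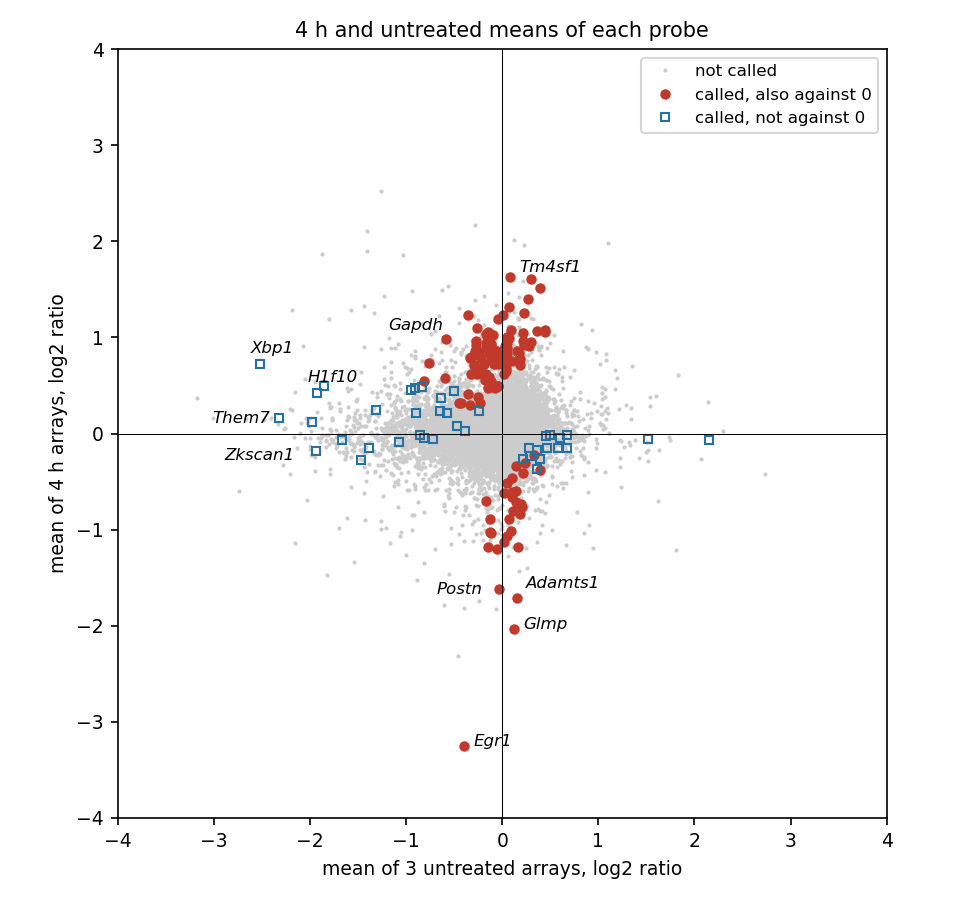
Mean log2 ratio of each tested probe on the 4 h arrays (y axis) against its mean on the 3 distinct untreated arrays (x axis). Red points are called against untreated arrays and against 0, blue squares are called against untreated arrays only, and grey points are not called. Among the blue squares Them7 lies at 0.16 at 4 h and -2.32 in untreated arrays, while among the red points Egr1 lies at -3.25 at 4 h and -0.40 in untreated arrays.

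The immediate early transcription factor Egr1 had the largest fall at 4 h among called named genes. Its probe read -3.08, -2.89, -3.50 and -3.52 on the 4 h arrays, against -0.43, -0.56 and -0.22 on the untreated arrays. The groups lay far apart and the 4 arrays of 4 h were close to each other in both dyes. Egr1 fell by 2.89 in log2 units (SE 0.25, limma adjusted p = 9.32e-06), and against 0 its 4 h level was -3.25 (adjusted p = 4.24e-08). Of 15 measured immediate early genes Egr1 alone was called, and 14 did not pass (median difference -0.02, against 0.02 over all named genes). Fosb, an AP-1 subunit, differed by 3.53 but read 0.61, 4.70 and 1.03 on 3 arrays of 4 h against 0.30, -1.12 and -3.43 on untreated arrays (adjusted p = 0.405). Fos differed by 1.13, with untreated values of 1.25, -4.65 and -2.26 (adjusted p = 0.878). Ier3, an immediate early gene linked to survival, differed by 0.43 (SE 0.18, adjusted p = 0.388).

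All 21 measured ERBB receptor and signalling genes missed the threshold in limma, with a median difference of 0.01 and gene differences of -0.27 to 0.81. The receptor gene Egfr, a partner of ERBB2, was measured by 5 probes that differed by 0.48, 0.04, 0.01, -0.11 and -0.20. Erbb3, another partner, differed by 0.01 with an SE of 1.07, a width that leaves its direction unread. All 9 measured ERK feedback and target genes missed the threshold too (median 0.17). Among them Dusp4, a phosphatase that removes ERK's activating phosphates, differed by -0.07 (SE 0.19), and Tnfrsf12a, a TNF receptor family member, by 1.04 (SE 0.31, adjusted p = 0.175). The 11 measured FOXO targets and AKT pathway brakes (median 0.08) and the 11 measured growth arrest and p53 targets (median -0.09) had 0 calls each. Foxo3, a transcription factor that AKT holds out of the nucleus, differed by -0.16 (SE 0.17), and the cyclin-dependent kinase inhibitor Cdkn1a by 0.27 (SE 0.28). Some of these lists gained calls in other settings. Leaving out untreated replicate 1 gave 3 ERBB genes higher and 1 lower of 21, and 1 ERK target higher of 9. It also gave 1 FOXO list gene higher of 12, and 1 growth arrest gene higher and 1 lower of 12. That setting greatly raised the calls over all probes, as given above, so these counts are not read as traits of these lists. Against 0, 1 of 9 ERK targets was called higher, and 1 of 13 FOXO list genes and 1 of 12 growth arrest genes lower. Of all single probes 2.64% were called higher and 0.596% lower against 0.

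At 4 h, 3 fibrillar collagen genes and genes of 4 proteins that bind or cross-link collagen fell. Of 32 measured matrix genes 7 fell (21.9%), 25 did not pass and 0 rose, with a list median of -0.09. The 7 were the fibrillar collagen genes Col1a1, Col1a2 and Col3a1, the collagen-binding proteins decorin (Dcn) and dermatopontin (Dpt), lysyl oxidase (Lox), which cross-links collagen, and periostin (Postn), a matrix protein that binds collagen and integrins. All 7 were also called against 0. Over the whole list, 3 of 34 genes were called higher and 10 lower against 0. Of all probes 2.64% were called higher and 0.596% lower against 0. Those shares are of single probes, while a gene counts by its probe of lowest p. Leaving out untreated replicate 1, which greatly raised the calls over all probes, gave 4 higher and 11 lower of 32. Col1a2 read -1.02, -1.07, -1.22 and -1.42 on 4 h arrays, against -0.24, -0.26 and 0.04 on untreated arrays. It fell by 1.05 on this probe (SE 0.12, limma adjusted p = 9.59e-05), and its other 2 probes were called as well, at -1.14 and -0.77. Postn read -1.45, -1.27, -1.64 and -2.12 on 4 h arrays, against -0.19, -0.22 and 0.31 on untreated arrays. This was the largest fall of the list, a fall by 1.58 (SE 0.24, adjusted p = 0.00208). Col3a1 fell by 1.11 (SE 0.18), with -0.98, -1.18, -1.13 and -0.99 on 4 h arrays, against -0.25, 0.15 and 0.25 on untreated arrays. Dcn fell by 1.11 (SE 0.17), Lox by 0.98 (SE 0.19) and Dpt by 0.93 (SE 0.17).

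Probes of 1 gene did not always pass together. Col1a1 fell by 0.94 on 1 probe (SE 0.15, limma adjusted p = 0.00206), with -0.93, -0.90, -1.31 and -1.03 on 4 h arrays, against -0.21, -0.11 and -0.05 on untreated arrays. Its other probe was as low at 4 h (mean -0.98) but also below 0 in untreated arrays (mean -0.53), and that difference of -0.45 missed the threshold. Of 3 Lox probes 2 passed, at -0.98 and -0.97, and the other was at -0.59. Of 2 Dpt probes 1 passed, and the other was at -0.55. Fibronectin (Fn1), the main cell-binding matrix glycoprotein, was measured by 5 probes that differed by -0.40 to 0.09, all of which missed the threshold. Sparc, a collagen-binding matricellular protein, differed by -0.44 on 1 probe (SE 0.15, adjusted p = 0.253). Its other probes were at -0.41 and 0.09.

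The promoter of Col1a2 is printed here because its 3 probes were all called lower. The 250 bases before its annotated start (RefSeq, GRCm38.p6, chr6:4505368-4505617, plus strand) hold 1 CCAAT box, the letters CCAAT searched on both strands and shown in capitals, 109 bases before the start. That motif occurs in 33.8% of 32851 promoter windows of this length, so its presence is common. Of the 7 called matrix genes 4 were in the promoter table, and Col1a2 was the 1 with a match.
Col1a2: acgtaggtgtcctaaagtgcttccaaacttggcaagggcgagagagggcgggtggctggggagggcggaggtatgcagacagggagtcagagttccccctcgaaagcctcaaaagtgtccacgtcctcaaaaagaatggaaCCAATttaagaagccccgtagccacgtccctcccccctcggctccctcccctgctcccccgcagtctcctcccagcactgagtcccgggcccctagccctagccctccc

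Enzymes that cut or trim the matrix moved in both directions. Of 17 measured proteases and inhibitors 2 fell and 1 rose (17.6%), and 14 did not pass (median -0.05). Adamts1, a secreted metalloprotease that cleaves proteoglycans, read -1.93, -1.69, -1.65 and -1.58 on 4 h arrays, against -0.43, 0.21 and 0.68 on untreated arrays. The 4 h arrays were tight while the untreated arrays spread over more than 1 log2 unit, and Adamts1 fell by 1.84 (SE 0.23, limma adjusted p = 0.000235). Cpz, a carboxypeptidase of the matrix, fell by 1.35 (SE 0.30, adjusted p = 0.0451) on 3 values of 4 h (-2.13, -0.77 and -0.66), against -0.23, 0.35 and 0.38 on untreated arrays. The lysosomal protease cathepsin L (Ctsl), a secreted product of transformed fibroblasts, read 1.73, 1.82, 1.26 and 1.23 on 4 h arrays, against 0.09, 0.41 and 0.68 on untreated arrays. It rose by 1.10 (SE 0.17, adjusted p = 0.00206), a call that ended without centring (0.80, adjusted p = 0.0637 for Ctsl, 4 h minus untreated). Mmp2 (gelatinase) differed by -0.05 (SE 0.11) and Mmp9 by 0.08 (SE 0.21).

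Glmp, which encodes a glycosylated lysosomal membrane protein, was the second largest fall among called genes. It read -2.35, -0.68, -3.00 and -2.08 on 4 h arrays, against 0.31, 0.07 and -0.01 on untreated arrays. All 4 values of 4 h lay below all untreated values, but replicate 2 was far closer to them than the other 3. Glmp fell by 2.21 (SE 0.30, limma adjusted p = 0.000586). Of 20 measured lysosomal genes Glmp was the only 1 called (5%), and 19 did not pass (median 0.1). Lamp1, a main lysosomal membrane protein, differed by 0.41 (SE 0.15, adjusted p = 0.326).

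Genes of the actin cytoskeleton were mostly above their untreated values, and 4 of 26 measured members rose (15.4%), 22 did not pass and 0 fell. The list median was 0.35, and 22 of 26 gene differences were above 0, against a median of 0.02 over all named genes. Without centring the arrays the 4 calls of this list ended, and the list median was 0.05 where that of all named genes was -0.28. Actb, cytoplasmic beta-actin, read 1.00, 0.98, 0.38 and 0.79 on 4 h arrays, against 0.06, -0.30 and -0.42 on untreated arrays. It rose by 0.99 (SE 0.14, limma adjusted p = 0.000855), and its other probe by 0.75. Acta2, smooth muscle actin, rose by 0.91 on 1 probe (SE 0.15) while its other probe was at -0.14. The actin-binding protein profilin (Pfn1) rose by 0.74 (SE 0.15), with a wide untreated range of -0.05, -0.24 and -1.0, and missed the threshold with a dye effect for each group (0.65, adjusted p = 0.0565). Vimentin (Vim), the intermediate filament protein of fibroblasts, rose by 0.56 (SE 0.09), with 0.54, 0.56, 0.50 and 0.41 on 4 h arrays, against -0.14, -0.09 and 0.08 on untreated arrays. Actg1, the other cytoplasmic actin, differed by 0.79 on 1 of 4 probes (SE 0.29, adjusted p = 0.301). Its other probes were at -0.16, -0.17 and -0.01. Tpm1, which coats actin filaments, differed by 0.52 on 1 probe (SE 0.13, adjusted p = 0.089) and by 0.17 on the other.

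Actc1, the cardiac actin gene, was also called, with a rise of 1.09 (SE 0.13, limma adjusted p = 0.0002) and values of 0.90, 0.94, 0.74 and 0.82 on 4 h arrays, against -0.10, -0.34 and -0.28 on untreated arrays. Coding sequences of actin genes are nearly identical, so cDNA probes named for Actc1, Acta2 and Actb may read each other's transcripts and the identity of the member that rose is uncertain. The promoter of Actc1 is shown because serum response factor binds CArG boxes in actin genes. The 250 bases before its annotated start (RefSeq, GRCm38.p6, chr2:114052876-114053125, minus strand) hold 1 CArG box, searched on both strands and shown in capitals, 47 bases before the start. A CArG box occurs in 1.47% of the promoter windows. Of the 4 called actin list genes and Actc1, 4 were in the promoter table and Actc1 was the 1 with a match, a description of these letters only.
Actc1: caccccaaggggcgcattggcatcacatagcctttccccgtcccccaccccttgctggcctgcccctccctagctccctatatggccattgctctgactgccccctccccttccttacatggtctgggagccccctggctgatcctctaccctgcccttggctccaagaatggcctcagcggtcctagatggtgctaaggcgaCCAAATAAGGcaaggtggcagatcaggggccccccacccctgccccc

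Genes of 5 glycolytic enzymes rose. Of 18 measured members 5 were called (27.8%), 13 did not pass and 0 fell, and the list median was -0.09. Without centring Gapdh kept its call and the other 4 lost theirs, with a list median of -0.38 where that of all named genes was -0.28. Gapdh, which oxidises glyceraldehyde 3-phosphate, had the lowest adjusted p of the comparison. It read 0.75, 0.86, 1.10 and 1.20 on 4 h arrays, against -0.83, -0.49 and -0.45 on untreated arrays. The rise of 1.61 (SE 0.10, limma adjusted p = 7.02e-08) was made up of a 4 h level above 0 and an untreated level below 0. Another of its 3 probes rose by 1.24, and the other differed by 1.07 and did not pass. The other called members were aldolase, a mutase, an enolase and pyruvate kinase. Aldoa, aldolase, rose by 0.53 (SE 0.08). Pgam1, phosphoglycerate mutase, rose by 1.20 (SE 0.21), with 1.49, 1.42, 0.98 and 1.02 on 4 h arrays, against 0.20, -0.38 and 0.19 on untreated arrays. Eno1b, an enolase gene whose sequence is close to Eno1 and may share its signal, rose by 1.12 (SE 0.16). Pkm, pyruvate kinase, rose by 0.99 (SE 0.16). The hexokinase genes Hk1 and Hk2, which start the pathway, differed by -0.22 (SE 0.20) and 0.37 (SE 0.13) and did not pass.

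In sterol synthesis 1 of 12 measured members rose (8.33%) and 11 did not pass, with a list median of 0.35. Hmgcs1, which makes the precursor of mevalonate, read 1.55, 0.38, 1.53 and 1.30 on 4 h arrays, against -0.01, 0.12 and -0.24 on untreated arrays. It rose by 1.24 on this probe (SE 0.23, limma adjusted p = 0.0116), and its other probe differed by 0.66 and did not pass. Sqle, squalene epoxidase, differed by 1.54 with an SE of 0.90. Fdps, farnesyl diphosphate synthase, differed by 1.76 (SE 0.52, adjusted p = 0.172), with untreated values of 0.23, -0.74 and -3.18. Of 14 measured metal and oxidative stress genes 2 rose (14.3%), metallothionein Mt1 by 1.31 (SE 0.25) and the ferritin heavy chain gene Fth1 by 0.55 (SE 0.10), and 12 did not pass. Mt1 read 1.00, 1.61, 0.87 and 0.91 on 4 h arrays, against 0.06, -0.27 and -0.58 on untreated arrays. Fth1 passed on 1 of 4 probes. Without centring the calls of Mt1 and Fth1 ended. Mt2 differed by 0.70 with an SE of 0.67 on 1 probe and by 0.06 on the other. Haem oxygenase (Hmox1) differed by -0.03 (SE 0.10).

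Cell cycle genes carried 1 call in each of 2 lists. Of 30 measured G1/S and replication genes Pcna, the sliding clamp of DNA polymerase, rose (3.33%), and 29 did not pass (median 0.26). Pcna read 1.87, 1.43, 1.02 and 1.27 on 4 h arrays, against 0.03, 0.37 and 0.41 on untreated arrays, a rise of 1.11 (SE 0.19, limma adjusted p = 0.00589). Its other probe differed by 0.59 and did not pass. Of 32 measured G2/M genes Cdk1, the mitotic kinase, rose by 0.63 (SE 0.14, adjusted p = 0.0373) and 31 did not pass (3.12% called, median 0.26, with 26 of 32 above 0). Without centring the medians of both lists were -0.04 and -0.06, where that of all named genes was -0.28, and the calls of Pcna and Cdk1 ended. Cyclin A2 (Ccna2) differed by 0.53 (SE 0.15, adjusted p = 0.148), cyclin B2 (Ccnb2) by -0.37 (SE 0.19) and cyclin E1 (Ccne1) by -0.05 (SE 0.19). Other probes of Ccna2 and Ccnb2 differed by 0.44 and 0.5.

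Of 21 measured unfolded protein response genes 2 rose (9.52%) and 19 did not pass (median 0.21). Calreticulin (Calr), a calcium-binding chaperone of the endoplasmic reticulum, rose by 0.66 (SE 0.11, limma adjusted p = 0.00468). Hspa5, the BiP chaperone, read 1.24, 1.34, 0.90 and 0.78 on 4 h arrays, against -0.21, 0.45 and 0.79 on untreated arrays. Its groups met at 0.78 and 0.79, and the difference of 0.72 missed the threshold (adjusted p = 0.203), although its 4 h level against 0 was 1.06 (adjusted p = 6.5e-05). With a dye effect for each group Hspa5 passed (0.86, adjusted p = 0.0417). Of 18 measured heat shock genes the chaperonin subunit Tcp1 rose by 0.52 (SE 0.12, adjusted p = 0.0451), 17 did not pass (5.56% called, median 0.19), and 2 other Tcp1 probes were at 0.36 and 0.23. Hsp90aa1 differed by 0.70 on 1 probe (SE 0.17, adjusted p = 0.0669) and by -0.08 on the other. Both counts moved with the setting. Against 0, 5 of 22 unfolded protein response genes and 10 of 18 heat shock genes were called higher at 4 h, where 2.64% of all probes were. That share is of single probes, while a gene counts by its probe of lowest p, so the units differ. Fitting the dye effect per group gave 5 and 2 higher against untreated arrays, and without centring 1 and 0 were called.

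**Figure D2:**
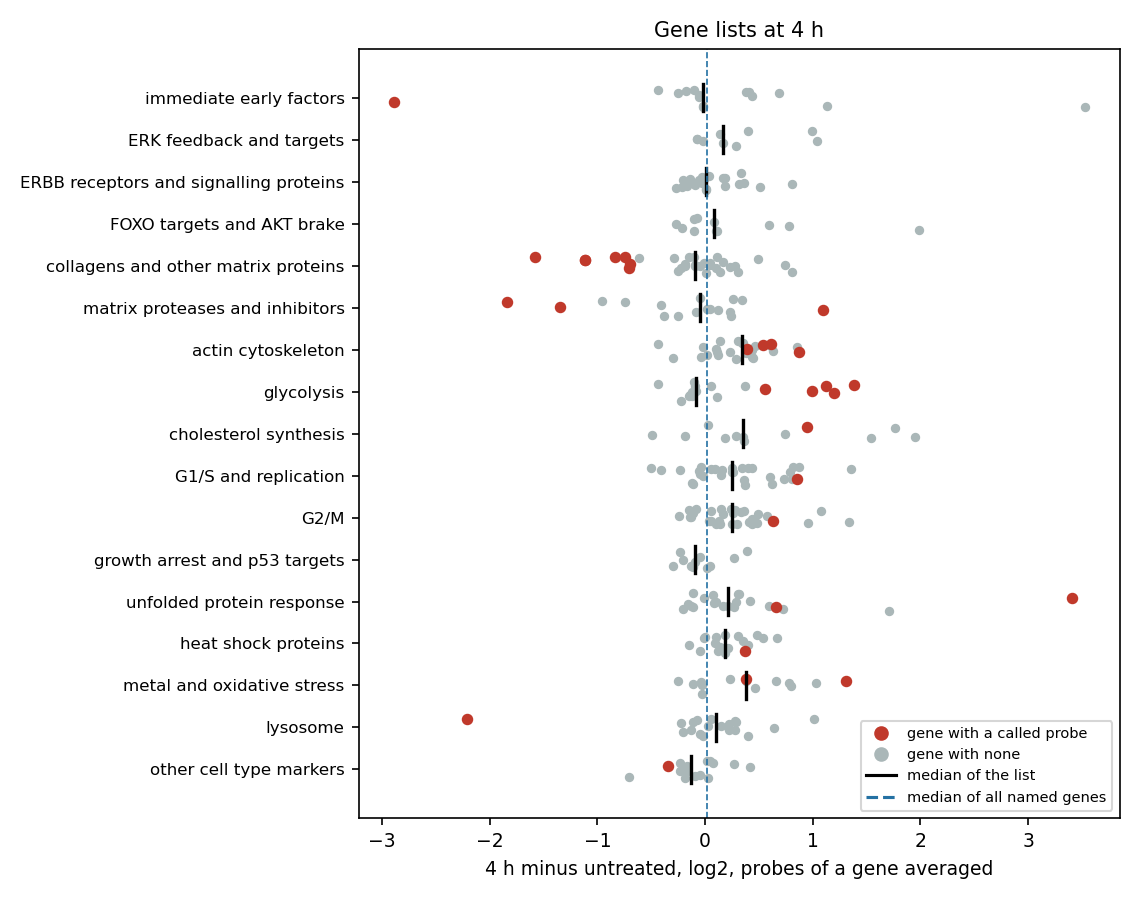
Difference of 4 h minus untreated (log2, x axis, probes of a gene averaged) for each measured gene of the 17 lists (y axis). Red points have a called probe, grey points have none, black bars are list medians and the dashed line is the median of all named genes, 0.02. The matrix list holds 7 called points, all below 0, and the actin and glycolysis lists hold 4 and 5, all above 0.

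The largest rises were of another kind. Of the 15 largest rises among called named genes, 10 were not called against 0, while of the 15 largest falls 14 were. Xbp1, which switches on chaperone genes when proteins misfold and was the other call of that list, read -0.09, -0.25, 0.58 and 2.63 on 4 h arrays, against -1.94, -1.85 and -3.76 on untreated arrays. Its difference of 3.41 (SE 0.71, limma adjusted p = 0.0289) combined a 4 h level of 0.72 that did not differ from 0 (adjusted p = 0.633) with an untreated level of -2.52. Them7 (difference 2.55), the linker histone gene H1f10 (2.36), the lysosomal amino acid transporter Slc38a9 (2.24), the zinc finger genes Zkscan1 (1.79) and Zfp410 (1.64), and Klhdc7a (1.64) had 4 h levels between -0.18 and 0.42 and untreated levels of -2.32 to -1.32. Other probes of Them7, Slc38a9 and Zkscan1 differed by -0.66, -0.12 and -0.96 and did not pass. Matr3, a nuclear matrix protein, Cchcr1 and Dnajb8 had 4 h levels of 0.47, 0.45 and 0.48, not called against 0, and untreated levels of -0.91, -0.95 and -0.84. Fitting the dye effect per group ended the calls of Xbp1, H1f10 and Dnajb8 (limma adjusted p = 0.0565, 0.0904 and 0.0539). What sets the untreated values of these probes apart was not tested.

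Among the 15 largest rises, 5 were called against 0 as well: Gapdh and Mt1, described above, Tm4sf1, Azin1 and Ccl4. Tm4sf1, a membrane protein of the transmembrane 4 L6 family found on many tumour cells, read 1.62, 1.44, 1.77 and 1.68 on 4 h arrays, against -0.03, 0.24 and 0.02 on untreated arrays. It rose by 1.58 (SE 0.15, limma adjusted p = 1.29e-05), with tight values in both groups and both dyes. Azin1, which inhibits antizyme and so protects the polyamine enzyme ornithine decarboxylase, rose by 1.57 on 1 probe (SE 0.16, adjusted p = 4.5e-05), with 1.23, 1.24, 1.09 and 1.38 on 4 h arrays, against -0.30, -0.28 and -0.49 on untreated arrays. Its other probe differed by -0.13 and did not pass, so the 2 probes disagree. The chemokine gene Ccl4 rose by 1.36 (SE 0.31, adjusted p = 0.0474), but its untreated values of 0.24, -1.27 and -1.43 split by dye.

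Further falls called against 0 included metabolic and regulatory genes. Naprt, an enzyme of NAD synthesis from nicotinic acid, read -0.60, -1.07, -1.0 and -1.38 on 4 h arrays, against -0.26, 0.33 and 0.20 on untreated arrays, a fall by 1.14 (SE 0.23, limma adjusted p = 0.0172). Lipoprotein lipase (Lpl) fell by 0.95 (SE 0.18) on 1 of 2 probes. Itm2b, a membrane protein that interacts with amyloid precursor protein, fell by 0.92 (SE 0.13), with 1 further probe called at -0.89 and another at 0.24. The helix-loop-helix factor Atoh8 read -0.96, -1.04, -0.91 and -1.18 on 4 h arrays, against -0.22, -0.12 and -0.04 on untreated arrays, a fall by 0.89 (SE 0.11, adjusted p = 0.000303). Ssbp2, a single-stranded DNA-binding protein, fell by 0.58 on 1 of 2 probes. Arnt2, a helix-loop-helix partner protein, was called at -0.86, yet its 4 h level was -0.15, its untreated level was 0.67, and its other probe differed by 1.57 without passing.

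Of 16 measured epithelial, muscle, liver, endothelial and blood markers 1 fell, 0 rose and 15 did not pass (6.25% called, median -0.13). That was Lyz2, lysozyme of macrophages, which read -0.20, -0.17, -0.10 and -0.14 on 4 h arrays, against 0.11, 0.40 and 0.86 on untreated arrays. Its 4 h level did not differ from 0 (limma adjusted p = 0.36), its call ended with a dye effect for each group (adjusted p = 0.0645), and its other probe differed by -0.01. The keratin genes Krt8, Krt18 and Krt19 differed by -0.05, -0.19 and 0.27. Leaving out untreated replicate 1, which greatly raised the calls over all probes, gave 3 higher and 5 lower of 17 markers. Against 0 the count was 2 higher of 17, where 2.64% of all single probes were called higher. The part of other cells in any result was not tested.

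**Figure D3:**
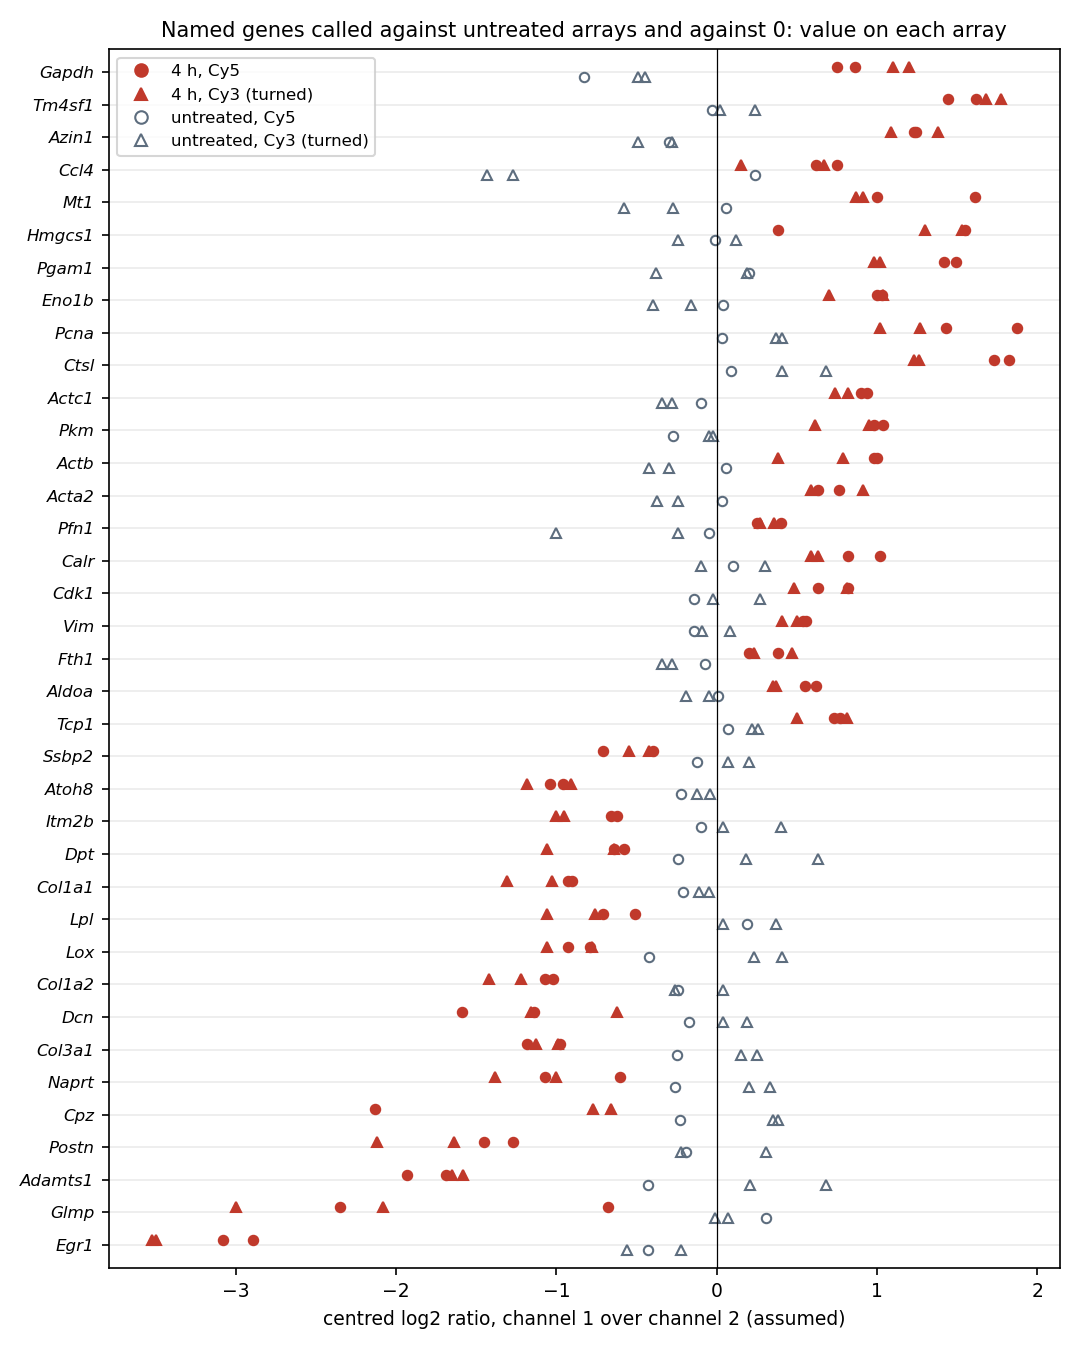
Centred log2 ratio (x axis) of each named gene called against untreated arrays and against 0 (y axis, ordered by difference), 1 point per array. Red symbols are 4 h arrays and open grey symbols are untreated arrays, with circles for Cy5 and triangles for turned Cy3 arrays. The 4 h points of Egr1 lie between -3.52 and -2.89, and those of Tm4sf1 between 1.44 and 1.77, each clear of the untreated points.

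Another 62 called genes lay outside the rule for named genes, 48 higher and 14 lower, and 44 of them were also called against 0. The following were picked from them after their values were seen. Tubulin genes Tuba1a, Tuba1b and Tuba1c, near-identical copies whose probes may share signal, rose by 0.91, 0.80 and 1.00. Proteins that bind or splice RNA were among the rises: the splicing factors Srsf2 (1.12) and Srsf3 (0.94 and 0.90 on 2 probes), the ribonucleoproteins Hnrnpa2b1 (0.60) and Syncrip (0.73), the cold-inducible RNA-binding protein Rbm3 (0.84) and Nop58 (0.60), a core protein of small nucleolar particles. The translation factors Eif4a1 and Eif5a rose by 1.00 and 0.90, while Eif3e fell by 0.62. Another Eif5a probe was at -0.03 and did not pass. Nuclear transport genes Ran and Kpna2 rose by 0.69 and 0.92, and the mitochondrial carriers Slc25a3 and Slc25a5 by 0.58 and 0.74. Twist2, a helix-loop-helix factor of mesenchymal cells, rose by 0.71, and the galectin gene Lgals1 by 0.73. Among the falls called against 0 were the ubiquitin enzymes Pja2 and Ube2h, which fell by 0.65 and 0.54. The transcription factor Nfic, also called against 0, fell by 0.52 on 1 probe. Its other probes were at 0.07 and 0.32, another Ube2h probe was at -0.24, and none of these passed. Plin2, a lipid droplet coat protein, was called at -0.75, with a 4 h level of -0.15 and an untreated level of 0.58. Other probes of Syncrip, Twist2, Lgals1 and Plin2 differed by 0.58, 0.35, 0.34 and -0.23 and did not pass. The genes picked here form no list, and no theme was tested.

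The 4 h arrays were next compared with the 1 h and 2 h arrays, a contrast of 3 groups that each hold both dyes equally. The untreated arrays are not contrasted here but enter the estimates of the dye effect and the spread. limma called 5 of 18814 probes (0.0266%), all lower at 4 h, and 4 of 9408 named genes (0.0425%) had one; with only the groups compared in the fit it called 2 probes. Glmp differed by -2.17 (adjusted p = 0.00068), since it stood at 0.14 at 1 h and 0.15 at 2 h. Egr1 differed by -1.68 (adjusted p = 0.00122), with means of -0.55 at 1 h, -2.60 at 2 h and -3.25 at 4 h. Plk2, a stress-responsive polo-like kinase, differed by -1.16 (adjusted p = 0.00224), with 0.49 and 0.75 at 1 and 2 h and -0.54 at 4 h. Against untreated arrays its difference of -0.75 missed the threshold (adjusted p = 0.0811). Pias1, a SUMO ligase, differed by -0.68 (adjusted p = 0.0453) on 1 of 5 probes. The collagen genes did not pass here, with Col1a2 at -1.44, -1.30 and -1.18 at 1, 2 and 4 h.

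Against the 12 h and 24 h arrays, 126 of 18305 probes (0.688%) were called, 93 higher at 4 h (0.508%) and 33 lower (0.18%), in 93 of 9221 named genes (1.01%), and 60 probes were called for 4 h minus 12 and 24 h with only the groups compared in the fit. Of the 159 probes called against untreated arrays 45 were also called here, 44 in the same direction; both comparisons use the 4 h arrays. Col1a2 was lower at 4 h, with a difference of -1.05 (SE 0.09, adjusted p = 1.17e-05), with means of -0.22 at 12 h and -0.05 at 24 h. Atoh8 was lower too, with a difference of -0.95 (SE 0.09), with -0.18 and 0.02 at the later times. Col3a1, Sparc and Adamts1 were lower as well (-0.79, -0.92 on the Sparc probe of lowest p, and -1.06). Of 32 measured matrix genes 4 were called lower and 0 higher. Postn and Egr1 differ from this pattern in their values: Postn stood at -1.62 at 4 h, -1.85 at 12 h and -1.80 at 24 h, and Egr1 at -3.25, -2.56 and -3.67. Neither passed in this comparison.

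Genes higher at 4 h than at 12 and 24 h included members of the actin and chaperone lists. Of 26 actin genes 8 were called higher and 0 lower, among them Vim by 0.54 (SE 0.07), Tpm1 by 0.77 (SE 0.11) and Actb by 0.73 (SE 0.11). The other Tpm1 probe was at 0.01. Of 18 heat shock genes 6 were called higher. Hspa9, the mitochondrial HSP70, was higher by 0.97 on 1 of 4 probes (SE 0.11, limma adjusted p = 0.000177). Its other tested probes differed by 1.67 and -0.22 and did not pass. Hspa5 was higher by 1.27 (SE 0.18, adjusted p = 0.00139), with means of 1.06 at 4 h, -0.23 at 12 h and -0.18 at 24 h. Ier3 was higher by 1.10 (SE 0.14), with 0.62, 1.21 and 0.43 at 1, 2 and 4 h and -0.60 and -0.75 at 12 and 24 h. Acly, which makes cytosolic acetyl-CoA for lipid synthesis, was higher by 1.08 (SE 0.15). Tm4sf1 was higher by 1.13 (SE 0.12), with 0.77 at 12 h and 0.22 at 24 h. Glmp was lower, with a difference of -2.19 (SE 0.24), having stood at 0.04 and 0.28 at the later times, so that among the 5 times its low values were those of 4 h.

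**Figure D4:**
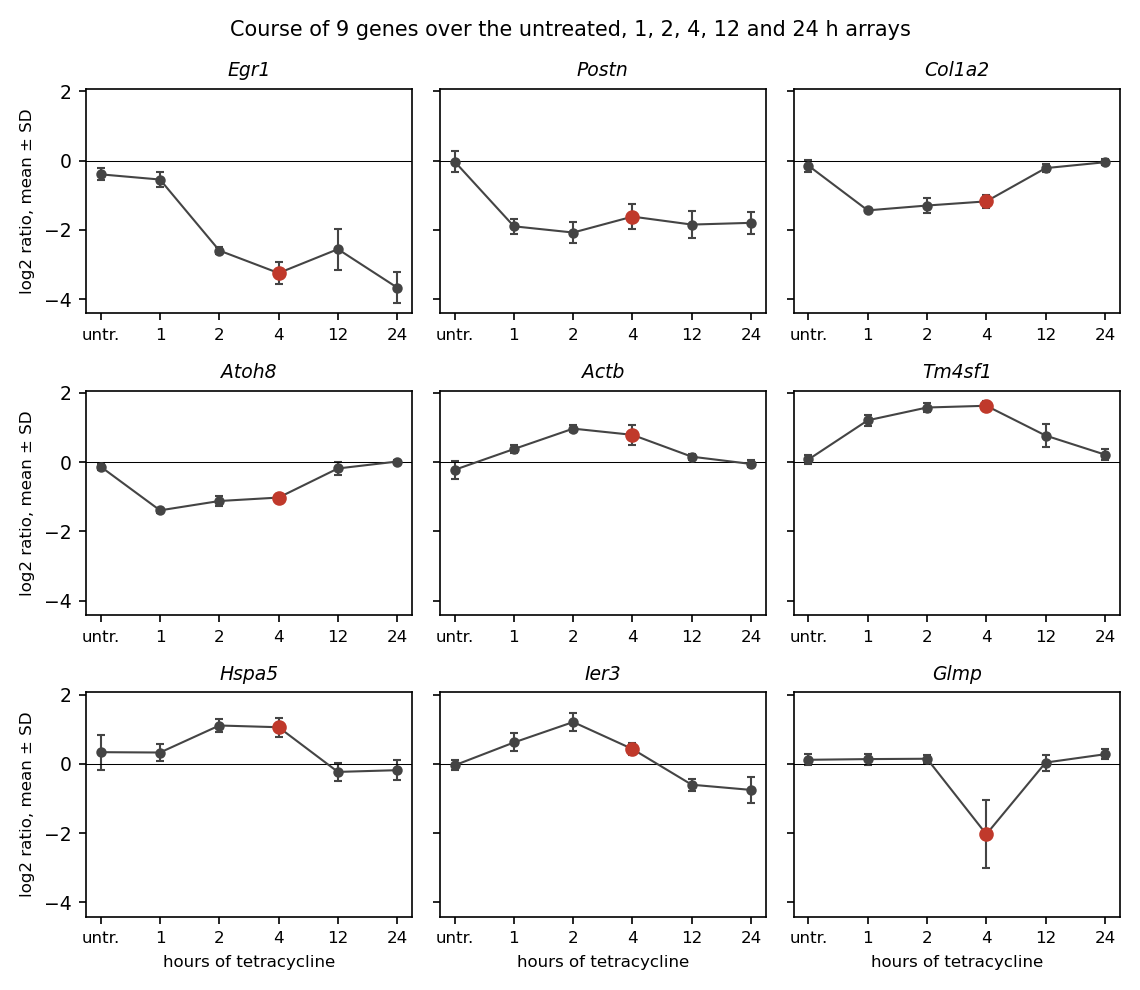
Mean log2 ratio with SD (y axis) of 9 genes on the untreated arrays and after 1, 2, 4, 12 and 24 h of tetracycline (x axis, not to scale), with 4 arrays per time and 3 distinct untreated arrays. The red point marks 4 h. Col1a2 and Atoh8 lie near 0 at 12 and 24 h, Egr1 and Postn are at -3.67 and -1.80 at 24 h, and Glmp is at -2.03 at 4 h and near 0 at the other times.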

How the data were processed

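Total RNA of Erbb2-transfected NIH3T3 cells was measured on 36 dual-colour arrays. Deposited were log2 ratios between both channels, per the file headers and values. Software, background correction, normalization and numerator are not given in the sources used here. Probe names came from GEO's platform annotation and were checked against RefSeq GRCm38.p6: 13994 of 14030 single-symbol probes matched by gene ID, 5 probes had several symbols, and 0 symbols changed.

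Values above 12 were set to missing (28 to 49 on 4 h arrays, 68 to 143 on untreated arrays), each array was centred on its median, and Cy3 arrays were multiplied by -1. Medians before centring were 0.089 to 0.462 at 4 h and -0.062 to 0.745 in untreated arrays. Untreated replicates 1 and 2 were counted once. limma 3.58.1 in R 4.3.3 (lmFit, eBayes) was fitted to 23 arrays (1, 2, 4, 12 and 24 h and untreated), with group means and a common dye effect for each probe. Probes needed 3 values per group compared. P-values were Benjamini-Hochberg adjusted over all probes tested, and 0.05 was the threshold. The 3, 5 and 7 day arrays were left out because earlier results of these data showed a wider spread on them. At 5 and 7 days those results also showed values displaced against the probe rows. The number of arrays limits the precision.

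Members and the 17 gene lists (463 genes, 323 measured) were chosen with earlier results of these data known. Named genes were the 15 largest rises and 15 largest falls among called single-symbol probes with all 7 values, called list members, the first 3 members of each list, and the 8 probes of lowest p per direction in the comparisons with other times, 82 genes in all. A gene counts by its probe of lowest p. The fit was tested on simulated data with independent noise, equal in spread across groups and without a dye pattern. That test does not cover the wider spread and the dye pattern of the untreated arrays. Alternatives are given in the closing section.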

Additional observations from a re-analysis of the deposited data

Results flagged for a closer look

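In the 4 h group 4 of 82 named genes had 1 array set apart from the other 3. This is near the share that chance sets apart, about 1 in 20 groups. These were Dpt with -1.06 on replicate 4, Eno1b with 0.70 on replicate 4, Krt18 with -0.21 on replicate 3 and Mvk, mevalonate kinase, with 0.16 on replicate 1. Dpt and Eno1b were called against untreated arrays, and Krt18 and Mvk were not.

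Differences between times were tested directly in limma. Against 1 and 2 h, 4 named genes differed at 4 h: Glmp by -2.17, Egr1 by -1.68, Plk2 by -1.16 and Pias1 by -0.68. Against 12 and 24 h, genes higher at 4 h were Hspa5 (1.27), Tm4sf1 (1.13), Ier3 (1.10), Acly (1.08), Hspa9 (0.97), Tpm1 (0.77), Actc1 (0.74) and Vim (0.54). Genes lower at 4 h were Glmp (-2.19), Adamts1 (-1.06), Col1a2 (-1.05), Atoh8 (-0.95), Sparc (-0.92), Col1a1 (-0.79), Runx3 (-0.69) and Ssbp2 (-0.59). Each value is that of the gene's probe of lowest p in the comparison. Hspa5, Ier3, Acly, Hspa9, Tpm1, Sparc and Runx3 had no call against untreated arrays.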

How the results depend on the processing

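For 4 h minus untreated the count of 159 became 295 without centring (18 higher, 277 lower, since the median of all probes shifted to -0.30), 239 with a dye effect for each group, 493 with array weights, 29 with 3 day arrays added, 84 of 9336 with probes of a gene averaged, 1426 with Cy3 arrays not turned (532 higher, 894 lower), 0 with only the groups compared and 640 against 0. For 4 h minus 1 and 2 h the count of 5 became 3 without centring, 8 with quantile normalization, 10 with a dye effect for each group, 3 with Cy3 arrays not turned, 2 with only the groups compared, 2 with 3 day arrays added, 14 with array weights and 3 with probes averaged. For 4 h minus 12 and 24 h the count of 126 became 50 without centring, 5 with Cy3 arrays not turned, 60 with only the groups compared, 23 with 3 day arrays added, 203 with array weights and 60 with probes averaged. Leaving out 1 array of 4 h gave 99 (without replicate 2) to 114 against untreated, 4 to 8 (without replicate 1) against 1 and 2 h, and 74 (without replicate 2; 78 without replicate 1) to 104 against 12 and 24 h. Leaving out 1 untreated array gave 134 to 2094, the highest without replicate 1. The replicate block, in place of the dye effect, gave 118, 5 and 103 calls in the 3 comparisons. Same-numbered arrays of 4 h and untreated correlated at -0.145, -0.086 and -0.125 in their deviations. Arrays of the same dye and different number correlated at -0.143 to -0.094, and arrays of opposite dye at 0.081 to 0.161. Replicate number goes with dye, so these values cannot show whether numbers pair the arrays. The causes were not tested.

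Of 49 called named genes, 44 kept their call under quantile normalization and 44 where the dye effect was fitted per group, 27 without centring, 41 with the replicate block, 13 with 3 day arrays and 0 in the fit of the 2 groups alone, without a change of sign. Against 0, 37 kept it, 10 lost it and 2 turned, Klhdc7a (-0.07) and Zkscan1 (-0.18). With probes averaged Arnt2 turned (0.35). With Cy3 arrays not turned, 39 changed sign. These were Acta2 -0.33, Actb -0.18, Actc1 -0.23, Adamts1 0.74, Aldoa -0.08, Atoh8 0.26, Azin1 -0.39, Cchcr1 -0.92, Ccl4 -0.84, Col1a1 0.40, Col1a2 0.40, Col3a1 0.46, Cpz 0.08, Dcn 0.24, Dnajb8 -0.76, Dpt 0.65, Egr1 0.91, Eno1b -0.38, Fth1 -0.27, Gapdh -0.45, Glmp 0.51, H1f10 -1.22, Hmgcs1 -0.49, Itm2b 0.53, Lox 0.66, Lpl 0.45, Lyz2 0.37, Matr3 -0.57, Mt1 -0.41, Naprt 0.70, Pfn1 -0.48, Pgam1 -0.18, Pkm -0.05, Postn 0.90, Slc38a9 -1.25, Ssbp2 0.15, Them7 -1.58, Tm4sf1 -0.32 and Xbp1 -2.05.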
